A study of Mus musculus with 3 samples.

Results

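Short gaps between close genes are the stretches of 100 to 1000 bp that separate the spans of 2 neighbouring protein-coding genes which do not overlap. On mouse chromosomes 1 to 19 there were 1417 such gaps among 18508 gaps between neighbouring, non-overlapping protein-coding genes. They were chosen from gene coordinates alone (the GRCm38.p6 gene table of RefSeq, with mm10 coordinates), and the rule uses no nucleosome value, although it was proposed with earlier results of these data known. With the strand of both genes known, 278 pairs were head-to-head (both genes start at the gap and run away from each other), 380 were tandem (1 gene ends and the next starts) and 339 were tail-to-tail (both genes end at the gap). The strand of 1 or both genes was not given for 420 pairs, among them all pairs of chromosome 18.

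The libraries are micrococcal nuclease sequencing of chromatin, in which the enzyme digests the linker DNA and leaves the DNA wrapped around histones. The cells were erythroblasts, the nucleated precursors of red cells, from mouse fetal liver. They were Ter119-negative at the start, Ter119 being a surface marker of later erythroid stages, and came from 6 fetuses. They were kept in IMDM with insulin, BSA (1%), erythropoietin (2 U/ml) and fetal bovine serum (10%) and taken on culture day 0, day 1 or day 2. The sources used here give no strain, genotype or gestational age, and nothing in the labels separates the days except the time in culture. The series asks how nucleosomes change during terminal red cell formation. Each day has a single library, so no value has a replicate check, no test between days was made, and every interval below covers counting error or the spread within a library only. Each library came as a list of nucleosome positions 140 bp wide, with 3689577, 2967550 and 4382151 positions on the autosomes on days 0, 1 and 2. The value of a position is its summit value, the authors' smoothed and scaled coverage at its centre, with a median of 7.62, 6.80 and 6.26. Positions were listed separately in each library, and the read depth is unknown, so "empty" means below only that no centre was listed.

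As background, the start of an active mammalian gene usually lies in a nucleosome-depleted region, where transcription factors and the transcription machinery bind, and a nucleosome, called +1, sits at a regular distance downstream of it. In a head-to-head pair with a short gap the promoters of both genes share this stretch, and such bidirectional promoters are rich in CpG dinucleotides and often belong to housekeeping genes such as those for DNA repair, mitochondrial proteins and histones. A tail-to-tail gap holds no promoter of either gene, and the ends of genes carry polyadenylation sites.

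The gaps had a median length of 413 bp (quartiles 216 and 668). Head-to-head gaps were the shortest, with a median of 229.5 bp, against 499.5 bp for tandem and 457 bp for tail-to-tail gaps. Among gaps with strand, head-to-head pairs made up 27.9% of the short gaps (95% exact Clopper-Pearson interval 25.1 to 30.8, n = 997), 10.6% of gaps over 1000 and up to 5000 bp (9.28 to 12.0, n = 2042) and 23.1% of longer gaps (22.2 to 24.0, n = 9308). Tandem pairs made up 38.1%, 57.5% and 58.7% in the same order. Single autosomes had between 3.13 and 10.2 short gaps per 100 genes, the most on chromosome 17, before chromosome 11 with 9.36. Of the 1049 gene starts that face a short gap with strand, 79.1% lay within 100 bp of the start in the RefSeq promoter table. Genes of noncoding RNA overlapped 66 of the gaps, 38 of them tandem.

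The sequences of some head-to-head gaps show what lies between close starts. They are from the RefSeq promoter table of GRCm38.p6, hold only the bases between both gene spans, and are in lower case with matches to searched motifs in capitals. Searched on both strands were the TATA box (TATAAA), the CCAAT box bound by NF-Y (CCAAT), the GC box bound by Sp1 (GGGCGG), the ETS core (CCGGAAG), the NRF1 motif (GCGC and TGCGC with any 1 base between them), the GATA motif (AGATAA) and the E-box (CACGTG). None of them contains another, and overlapping matches were each counted. The following 4 gaps held no listed centre on any of the 3 days. Ranbp1 codes for a regulator of the Ran nuclear transport cycle and Trmt2a for a tRNA methyltransferase, Mrps12 and Sars2 for a mitochondrial ribosomal protein and the mitochondrial seryl-tRNA synthetase, Fbh1 for a DNA helicase, and H2ac22 and H2bc22 for the histones H2A and H2B.
Ranbp1-Trmt2a, chr16:18248695-18248846, plus strand: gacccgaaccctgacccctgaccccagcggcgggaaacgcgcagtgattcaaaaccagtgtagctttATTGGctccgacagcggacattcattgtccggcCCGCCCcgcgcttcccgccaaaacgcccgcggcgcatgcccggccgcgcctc
Mrps12-Sars2, chr7:28741822-28741956, plus strand: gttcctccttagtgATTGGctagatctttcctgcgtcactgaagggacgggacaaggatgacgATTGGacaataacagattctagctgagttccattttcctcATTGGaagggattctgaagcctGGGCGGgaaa
Fbh1-Ankrd16, chr2:11777586-11777752, plus strand: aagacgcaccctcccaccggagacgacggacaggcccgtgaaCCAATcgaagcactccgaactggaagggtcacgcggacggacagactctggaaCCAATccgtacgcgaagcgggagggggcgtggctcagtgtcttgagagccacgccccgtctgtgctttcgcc
H2ac22-H2bc22, chr13:21787249-21787482, plus strand: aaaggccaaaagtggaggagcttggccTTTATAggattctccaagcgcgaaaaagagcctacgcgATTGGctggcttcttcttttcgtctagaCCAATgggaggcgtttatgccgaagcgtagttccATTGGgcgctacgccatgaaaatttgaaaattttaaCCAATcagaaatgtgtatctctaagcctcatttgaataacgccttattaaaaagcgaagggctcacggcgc

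The following 3 gaps held a listed centre, the first and the second of them on all 3 days and the third on days 0 and 2. Cd3eap (Polr1g) codes for a subunit of RNA polymerase I and Ppp1r13l for the p53 regulator iASPP, Cd160 for a receptor of cytotoxic lymphocytes, Pdzk1 for a membrane scaffold protein, and Psmb9 and Tap1 for an immunoproteasome subunit and a peptide transporter of antigen presentation.
Cd3eap-Ppp1r13l, chr7:19359484-19359723, plus strand: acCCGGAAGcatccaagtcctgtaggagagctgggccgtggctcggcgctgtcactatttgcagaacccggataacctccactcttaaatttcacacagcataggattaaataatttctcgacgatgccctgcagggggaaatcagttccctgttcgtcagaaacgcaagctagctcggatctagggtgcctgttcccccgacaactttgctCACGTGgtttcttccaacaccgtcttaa
Cd160-Pdzk1, chr3:96829352-96829455, plus strand: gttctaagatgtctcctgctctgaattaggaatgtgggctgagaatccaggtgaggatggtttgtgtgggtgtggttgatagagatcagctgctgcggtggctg
Psmb9-Tap1, chr17:34187331-34187555, plus strand: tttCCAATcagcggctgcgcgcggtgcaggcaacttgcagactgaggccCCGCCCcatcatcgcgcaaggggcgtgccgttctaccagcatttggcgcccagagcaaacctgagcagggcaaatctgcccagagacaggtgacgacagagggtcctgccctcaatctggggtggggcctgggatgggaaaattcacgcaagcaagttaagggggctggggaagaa

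The H2ac22-H2bc22 gap held 4 CCAAT boxes and 1 TATA box in 234 bp, and Mrps12-Sars2 held 3 CCAAT boxes and 1 GC box in 135 bp. Fbh1-Ankrd16 held 2 CCAAT boxes, and Ranbp1-Trmt2a had 1 CCAAT box and 1 GC box with a GC content of 67.1%. Among the gaps with a centre, Cd3eap-Ppp1r13l held an ETS core and an E-box, Psmb9-Tap1 a CCAAT box and a GC box, and Cd160-Pdzk1, at 51.0% GC and with 1 CG dinucleotide in 104 bp, held none of the 7 motifs. A match is a description of the letters, not a bound site.

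The middle of the short gaps was low in listed nucleosomes, most of all where both genes start. The density of centres within 50 bp of the middle, weighted by summit values and divided by the density 800 to 1000 bp away, was 0.654, 0.661 and 0.707 on days 0, 1 and 2, with an SD over the 19 autosomes of 0.154, 0.162 and 0.171. It was below 1 on 19, 18 and 18 of the 19 autosomes. In gaps over 1000 and up to 5000 bp the same ratio was 1.04, 0.981 and 1.01, and in gaps over 5000 bp 0.982, 0.990 and 1.01.

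Over all lengths, head-to-head gaps had the lowest density in the middle. Their middles held 32, 36 and 52 centres on days 0, 1 and 2, against 414, 394 and 448 in the flanks, which cover 4 times the length. The weighted density was 0.285, 0.334 and 0.465, and the ratio of numbers per bp was 0.309 (0.209 to 0.443), 0.365 (0.252 to 0.515) and 0.464 (0.341 to 0.620), with exact conditional binomial intervals. The ratio was below 1 on all 18 autosomes with strand on each day. When each chromosome was left out in turn the weighted values ran from 0.271 to 0.299, from 0.305 to 0.378 and from 0.424 to 0.483. The day 2 library had the highest value, but the number ratio of day 2 over day 0 was 1.50 with an interval of 0.928 to 2.46, which includes 1. The lowest values were in the shorter gaps. In head-to-head gaps of 500 bp or more the weighted density was 0.686, 0.638 and 0.954, against 0.764, 0.607 and 0.841 in tandem gaps of that length, which were lower on days 1 and 2.

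Tandem gaps, with 1 start and 1 end, were in between on days 0 and 1. Their weighted density was 0.680, 0.664 and 0.788, and the number ratio of day 2, 0.886 (0.736 to 1.06), had an interval that includes 1. In tail-to-tail gaps the weighted density was 0.839, 0.923 and 0.831, and the intervals of the number ratios, 0.938 (0.771 to 1.13), 1.07 (0.886 to 1.28) and 0.874 (0.717 to 1.06), all include 1. That reading depends on the positions counted. From summit value 10 upward the tail-to-tail number ratio was 0.673 (0.464 to 0.952), 0.515 (0.340 to 0.755) and 0.667 (0.434 to 0.992). The tandem one of day 2 was then 0.586 (0.382 to 0.868), so each of these intervals lay below 1. Over all positions, the number ratio of head-to-head gaps was 0.408 (0.263 to 0.618), 0.495 (0.325 to 0.738) and 0.524 (0.366 to 0.742) times that of tandem gaps. Against tail-to-tail gaps it was 0.330 (0.213 to 0.4997), 0.343 (0.227 to 0.509) and 0.531 (0.369 to 0.757) times. Tandem and tail-to-tail gaps differed beyond counting error on day 1 only, at 0.693 (0.530 to 0.906). Where only summit values from 10 upward were counted, 7, 11 and 10 centres were left in the head-to-head middles. The ratio to tandem gaps was then 0.465 (0.169 to 1.11), 0.726 (0.322 to 1.52) and 0.726 (0.303 to 1.61), with intervals that include 1 on each day. The ratio to tail-to-tail gaps was 0.347 (0.127 to 0.820), 0.7003 (0.306 to 1.50) and 0.638 (0.266 to 1.42), below 1 beyond counting error on day 0 only.

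Since head-to-head gaps are shorter, the classes were also set side by side at 100 to under 400 bp. There the head-to-head number ratio was 0.330 (0.179 to 0.587), 0.344 (0.192 to 0.5992) and 0.414 (0.251 to 0.677) times the tandem one, and 0.324 (0.174 to 0.584), 0.240 (0.136 to 0.410) and 0.493 (0.297 to 0.811) times the tail-to-tail one. Counting only summit values from 10 upward left 3, 7 and 5 centres in these head-to-head middles. The ratio to tandem gaps was then 0.251 (0.0452 to 0.944), 0.442 (0.151 to 1.16) and 0.435 (0.114 to 1.42). The ratio to tail-to-tail gaps was 0.575 (0.0908 to 2.79), 0.719 (0.230 to 2.08) and 0.770 (0.190 to 2.82). Only the day 0 interval against tandem gaps lay below 1.

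**Figure D1:**
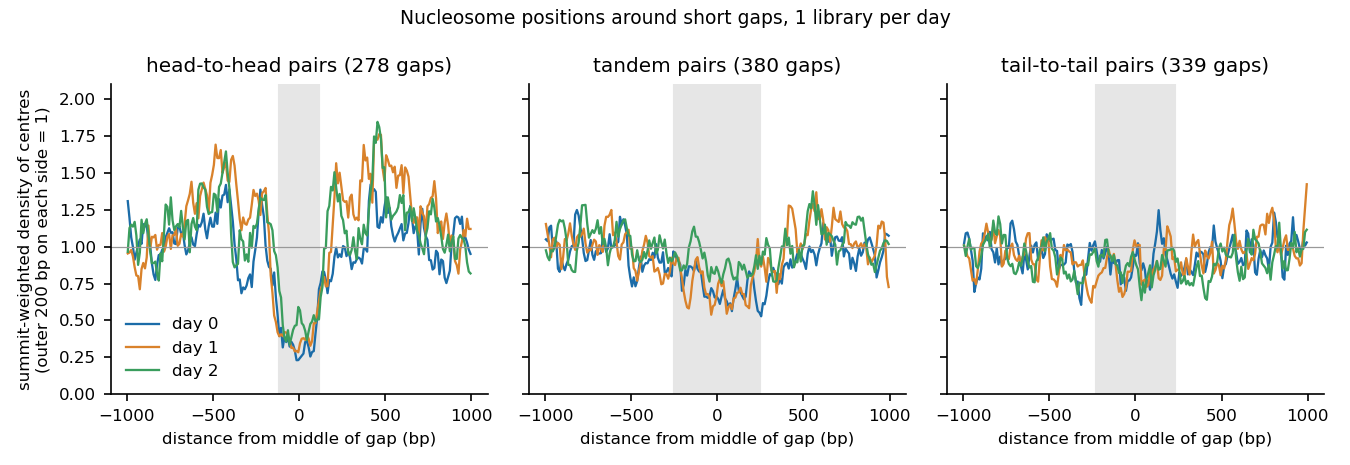
Density of nucleosome centres, weighted by summit values and smoothed over 50 bp, by distance in bp from the middle of the gap, with the outer 200 bp on each side set to 1. Lines are the libraries of days 0, 1 and 2 and the grey band is the median gap length. Head-to-head pairs fall to 0.230, 0.283 and 0.335 near the middle, and tail-to-tail pairs show no such trough.

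On both sides of the head-to-head trough the density was above the level of the flanks. The highest values were 1.42 on day 0, at 425 bp to the left and 415 bp to the right of the middle, 1.69 and 1.76 on day 1, at 485 and 465 bp, and 1.65 and 1.85 on day 2, at 425 and 455 bp. The nearest centres to the left and to the right of the middle lay a median of 505, 502.5 and 414 bp apart. In tandem gaps the distance was 302, 315 and 250 bp and in tail-to-tail gaps 260, 255 and 260 bp. A distance of 300 bp or more was found at 82.4% (77.4 to 86.7), 79.9% (74.7 to 84.4) and 72.7% (67.0 to 77.8) of head-to-head gaps and at 38.1%, 41.6% and 37.2% of tail-to-tail gaps.

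Most head-to-head gaps had no listed nucleosome centre at all. They were empty in 200, 197 and 174 of 278 cases on days 0, 1 and 2, which is 71.9% (66.3 to 77.1), 70.9% (65.1 to 76.1) and 62.6% (56.6 to 68.3). Tandem gaps were empty in 17.6%, 20.5% and 15.0% and tail-to-tail gaps in 15.6%, 16.8% and 15.0%. On no day did a centre lie in 154 head-to-head gaps (55.4%, 49.3 to 61.3), in 23 tandem gaps (6.05%) and in 16 tail-to-tail gaps (4.72%). A centre on all 3 days was found in 54 head-to-head, 258 tandem and 236 tail-to-tail gaps. Of the head-to-head gaps held on a single day, 24 were held on day 2, 8 on day 0 and 7 on day 1, and the day 2 list was also the longest.

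Longer gaps were less often empty, and below 400 bp head-to-head gaps were the most often empty at each length. At 100 to under 200 bp, 93.5% (87.6 to 97.2), 91.9% (85.6 to 96.0) and 83.7% (76.0 to 89.8) of the 123 head-to-head gaps were empty. Of the 46 tandem gaps of that length 37.0%, 56.5% and 41.3% were empty, and of the 67 tail-to-tail gaps 41.8%, 40.3% and 41.8%. At 200 to under 400 bp the shares were 72.6%, 70.8% and 61.3% of 106 head-to-head gaps, 28.1%, 31.2% and 28.1% of 96 tandem gaps and 17.8%, 17.8% and 19.2% of 73 tail-to-tail gaps. From 400 bp on the head-to-head class is small. It was empty in 5 of 25 gaps on each day at 400 to under 700 bp and in 3, 4 and 1 of 24 gaps at 700 to 1000 bp, with intervals that overlap those of the other classes.

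Windows of the same length inside the same genes, 1000 bp from each end of the gap, gave a base line for the local coverage. For head-to-head pairs 35.3%, 35.8% and 28.3% of 533 such windows were empty. Head-to-head gaps held 1.89, 1.93 and 2.37 centres per kb, which is 0.518 (0.431 to 0.620), 0.537 (0.447 to 0.641) and 0.622 (0.526 to 0.733) times the density in their own genes. In the class of 100 to under 200 bp the ratio was 0.144 (0.0643 to 0.283), 0.171 (0.0800 to 0.327) and 0.286 (0.169 to 0.460). Tandem gaps held 0.794, 0.782 and 0.895 times the density of their genes, with all 3 intervals below 1, and tail-to-tail gaps 0.967, 0.969 and 0.934 times, with all 3 intervals including 1.

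**Figure D2:**
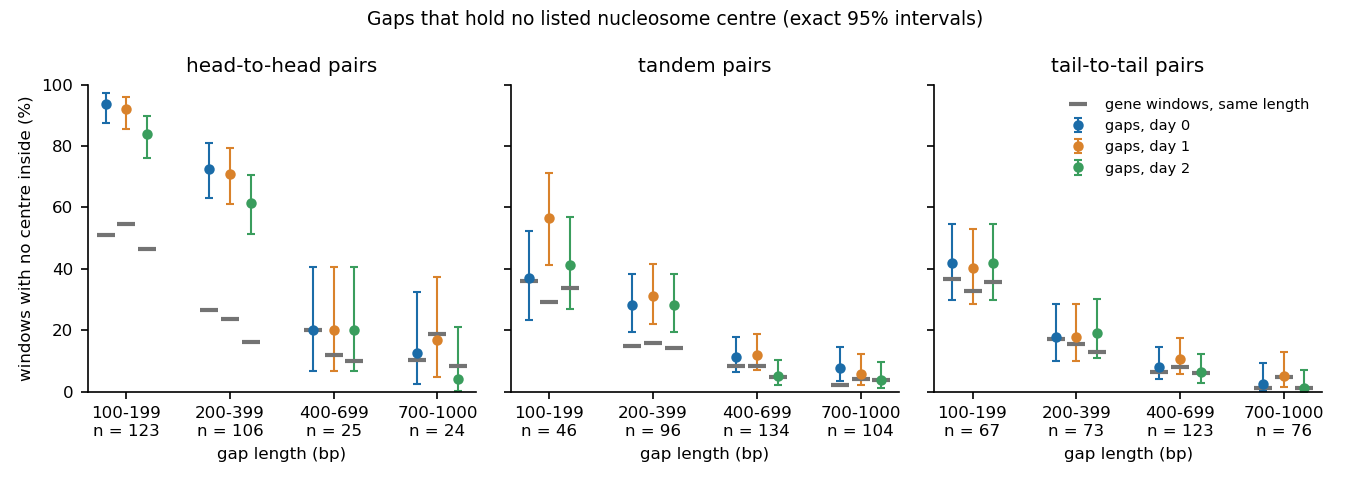
Percent of gaps with no nucleosome centre inside, by gap length in bp, for each orientation and day. Points are gaps with exact 95% intervals and grey bars are windows of the same length in the same genes. Below 400 bp the head-to-head points lie between 61.3% and 93.5%, above the bars of their own genes, and the tail-to-tail points lie near theirs.

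Gaps just inside and just outside the limits of length had the following values. Of the 28 gaps from 100 bp to less than 5 bp above it, 16, 20 and 16 were empty, and of the 30 gaps up to 5 bp below it, just outside the rule, 18, 21 and 23. All 4 gaps within 5 bp of the upper limit held a centre on each day, as did the 1 gap up to 5 bp past it.

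Seen from the gene edge, starts at head-to-head gaps were low outside the gene and had regular maxima inside. In the 150 bp outside the start, or up to the middle of the gap where that is nearer, the weighted density was 0.362, 0.401 and 0.458. These values are relative to the level 800 to 1000 bp inside the gene. Starts at tandem gaps had 0.625, 0.658 and 0.689, and the 13230 starts at gaps over 1000 bp had 0.696, 0.729 and 0.757. Tandem gene ends had 0.695, 0.763 and 0.931 and tail-to-tail ends 0.956, 0.813 and 0.858. The number ratio of head-to-head starts, 0.380 (0.297 to 0.480), 0.401 (0.313 to 0.509) and 0.445 (0.358 to 0.551), had intervals below those of tandem starts, 0.689 (0.563 to 0.841), 0.679 (0.558 to 0.825) and 0.710 (0.584 to 0.861). Both edges of a head-to-head gap enter this value, each only up to the middle of the gap, so no centre in the gap was counted from both sides.

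Inside the gene, the place of the +1 nucleosome, 80 to 180 bp from the start, was most filled on day 1. The weighted density there at head-to-head starts was 1.16, 1.82 and 1.37, and the number ratio was 1.15 (0.978 to 1.35), 1.54 (1.32 to 1.79) and 1.23 (1.05 to 1.43). At tandem starts the weighted density was 1.17, 1.40 and 1.19 and at starts at gaps over 1000 bp 1.25, 1.72 and 1.33, so the same order of days was seen at starts that face no short gap. The highest maximum within 300 bp of a head-to-head start lay at 125 bp on day 1, with a height of 2.15, and at 95 bp on day 2, with 1.61. On day 0 it lay at 295 bp, with 1.46, on the rising side of the next maximum.

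**Figure D3:**
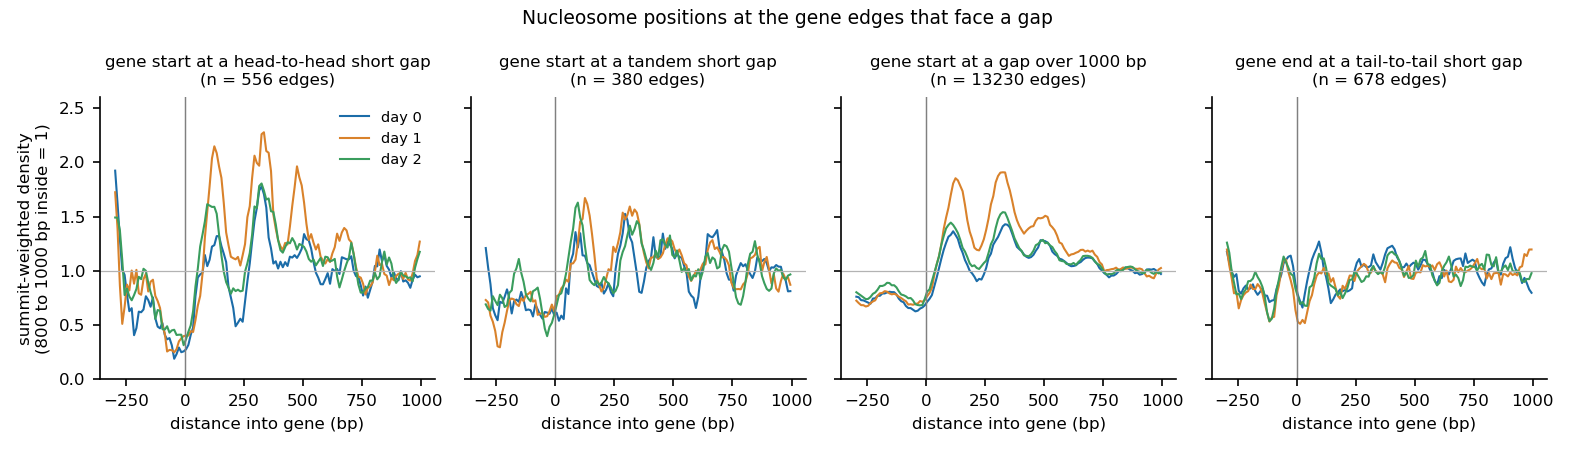
Density of nucleosome centres, weighted by summit values, by distance in bp from the gene edge that faces the gap, with 800 to 1000 bp inside the gene set to 1. Positions outside (negative) were counted only up to the middle of the gap. Lines are the libraries of days 0, 1 and 2. Starts show a trough at the edge, deepest at head-to-head gaps, and maxima inside. The maximum near the start was highest at head-to-head gaps on day 1 only, with 2.15. On days 0 and 2 it was slightly higher at tandem gaps, with 1.53 and 1.63 against 1.46 and 1.61. Tail-to-tail ends show no such series. The leftmost part of the head-to-head panel rests on the few gaps that are long enough.

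Head-to-head starts were also richer in CpG and in some promoter motifs. In windows from 250 bp before to 50 bp after the start, 1 per head-to-head gap, the median GC content was 60.3% (n = 271), against 58.3% at tandem gaps (n = 269) and 54.7% at gaps over 1000 bp (n = 10288). A CpG ratio (observed over expected from base content) of 0.6 or more was found in 84.5% (79.6 to 88.6), 55.8% (49.6 to 61.8) and 42.9% (41.9 to 43.9) of windows. The NRF1 motif was found in 16.2% (12.1 to 21.2) of the head-to-head windows, 5.20% (2.87 to 8.58) of the tandem windows and 6.81% of the 16457 windows of all protein-coding genes in the promoter table. The ETS core was in 25.1% (20.04 to 30.7), 18.6% (14.1 to 23.8) and 12.3%, the GC box in 66.4% (60.5 to 72.0), 57.6% (51.5 to 63.6) and 47.3% and the CCAAT box in 54.2% (48.1 to 60.3), 44.2% (38.2 to 50.4) and 38.9%. For these 3 motifs the head-to-head and tandem intervals overlap.

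The TATA box was rarer, in 7.01% (4.27 to 10.7) of head-to-head windows, 8.55% (5.497 to 12.6) of tandem windows and 13.5% of all windows. The GATA motif, the site of the erythroid factor GATA1, was in 4.06% (2.04 to 7.15), 7.43% (4.60 to 11.2) and 9.87%. The head-to-head and tandem intervals overlap for both. The E-box was in 10.7% (7.28 to 15.0) of head-to-head windows, 8.92% of tandem windows and 7.96% of all windows, with a head-to-head interval that includes the share of all windows. The 150 head-to-head gaps that lie whole within a window had a median GC content of 60.6%.

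Among windows of equal length with a CpG ratio of 0.6 or more, those at head-to-head starts were the most often empty. No centre was listed in 63.8% (57.2 to 69.99), 66.4% (59.9 to 72.5) and 50.2% (43.6 to 56.9) of 229 head-to-head windows. In 150 tandem windows of that class it was 44.0% (35.9 to 52.3), 43.3% (35.3 to 51.7) and 34.0% (26.5 to 42.2), and in 4413 windows at gaps over 1000 bp 49.4%, 44.4% and 35.2%. Below a ratio of 0.6 only 42 head-to-head windows were left, with 47.6%, 40.5% and 31.0% empty. Of 119 tandem windows in that class 25.2%, 19.3% and 17.6% were empty, and windows at gaps over 1000 bp were empty in 54.2%, 59.7% and 46.1%. How GC content affects digestion, sequencing and listing was not tested.

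Within the head-to-head gaps under 400 bp that had a promoter window, those without a centre on any day had a median length of 165.5 bp (n = 148) and those with a centre on all 3 days 326 bp (n = 16). The windows of the empty gaps had a median CpG ratio of 0.872 and a GC content of 61.2%, and those of the gaps held on all days 0.793 and 65.3%, with quartiles that overlap.

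The nucleosomes that were listed inside short gaps had higher summit values than the average. Their median was 8.39, 7.77 and 7.51 against 7.62, 6.80 and 6.26 over the autosomes, and values of 10 or more made up 28.5% (26.6 to 30.5), 24.7% (22.9 to 26.5) and 22.6% (20.9 to 24.4) against 15.0%, 13.3% and 9.06%. In head-to-head gaps the share was 21.4% (15.2 to 28.8), 28.7% (21.7 to 36.4) and 22.3% (16.6 to 28.8) of 154, 157 and 193 centres. Tail-to-tail gaps had 30.8%, 22.0% and 19.6%. The median fuzziness score, the authors' measure of how widely reads spread around a centre, was 50.9, 54.1 and 51.4 in head-to-head gaps and 53.3, 55.6 and 53.0 in tail-to-tail gaps.

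Across days, the surroundings of short gaps carried more signal on day 1 and less on day 2. Of the 3 orientation classes, head-to-head pairs had the highest median change from day 0 to day 2. Relative occupancy is the sum of summit values over the 2000 bp around the middle, relative to what the same library holds per 2000 bp of autosome. The median over short gaps was 3.15, 4.26 and 2.85, against 1.62, 1.56 and 1.46 over all 17958 gaps of 100 bp or more. The median number of centres per window was 8, 9 and 9 over short gaps and 5, 4 and 6 over all gaps. Sparser windows pass a limit of 2 times more easily by counting error. The shares of all gaps given below are not matched for the number of centres. Of the short gaps 1316 had at least 3 centres on each day, as did 10153 of all gaps, and these were compared between days. The 3 comparisons share libraries.

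From day 0 to day 1 the median log2 change was 0.46, against 0.25 over all gaps. A change of 2 times or more, which is a rule of size and no test, was seen upward at 189 short gaps (14.4%), where 10.3% of all gaps were called, and downward at 16 (1.22%), where 3.59% were called. From day 1 to day 2 the median was -0.58 against -0.47, with 5 short gaps higher, where 1.39% of all gaps were called, and 218 lower (16.6%), where 16.0% were called. From day 0 to day 2 the median was -0.14 against -0.21, with 39 higher (2.96%), where 3.53% were called, and 64 lower (4.86%), where 9.93% were called. This last split depends on the scaling. With each library scaled to the median of its own gap windows, 61 short gaps were higher and 37 lower, where the shares of all gaps were 5.34% and 6.59%. The median of short gaps was then 0.01 and that of all gaps -0.06. It depends also on the positions counted. With only summit values from 10 upward 370 short gaps had enough centres, of which 50 were higher and 7 lower, where the shares of all gaps were 13.01% and 2.20%. The difference between short gaps and all gaps from day 0 to day 1 depends on the weighting by summit values. With each position counted once, the median of that step was 0.31 for both. Of the 1316 short gaps 82 were then higher and 9 lower, where the shares of all gaps were 7.25% and 1.75%.

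The orientation classes had an order in the day 0 to day 2 change. The median log2 change was 0.04 for head-to-head gaps (17 higher and 5 lower of 264), -0.11 for tandem gaps (13 and 19 of 361) and -0.23 for tail-to-tail gaps (3 and 20 of 306). The higher gaps were 6.44%, 3.60% and 0.980% of the classes, where 3.53% of all gaps were called. The lower ones were 1.89%, 5.26% and 6.54%, where 9.93% were called. With the other scaling the medians were 0.20, 0.04 and -0.08, and with each position counted once -0.06 for head-to-head gaps and -0.25 for both other classes, which is the value of equal numbers on both days. The sign of the head-to-head and tandem medians thus depends on the setting. With only summit values from 10 upward all 3 medians were above 0, at 0.57, 0.44 and 0.15, as was that of all gaps, at 0.28. From day 0 to day 1 the medians were 0.58, 0.50 and 0.37, with 56, 58 and 29 gaps higher and 1, 2 and 4 lower. The higher gaps were 21.2%, 16.1% and 9.48% of the classes, where 10.3% of all gaps were called higher and 3.59% lower. When each position was counted once, all 3 medians were 0.31, as was that of all gaps, again the value of equal numbers. Then 21, 29 and 12 gaps were higher, where 7.25% of all gaps were called. From day 1 to day 2 the medians were -0.53, -0.59 and -0.60. With only summit values from 10 upward they were -0.44, -0.25 and -0.53, so the order of the classes in that step depends on the setting.

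**Figure D4:**
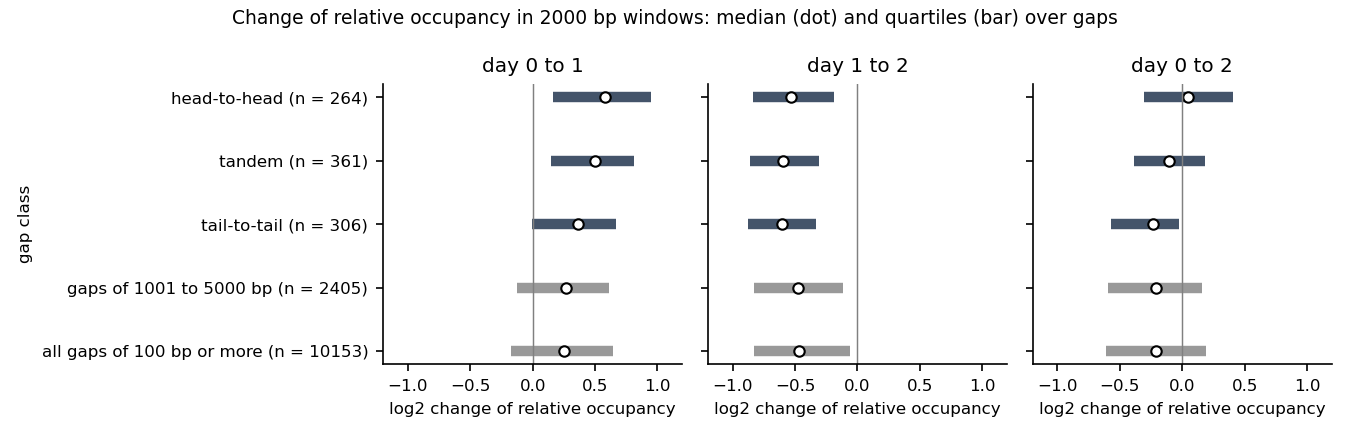
Log2 change of relative occupancy in 2000 bp windows between days, 1 library per day. Dots are medians and bars quartiles over the gaps with at least 3 centres on each day. From day 0 to day 2 the median falls from 0.04 in head-to-head gaps to -0.23 in tail-to-tail gaps, next to -0.21 in all gaps, and the quartile ranges overlap.

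Single gaps are named by size of change, by membership of the lists or as pairs long known as closely spaced, and their values are descriptions. With 3 to 14 centres per window and day, the scaled ratio of numbers between days 0 and 2 had an interval that includes 1 for each gap named. Of 18 such known pairs looked for, 5 had a short gap (Brca1-Nbr1, Psmb9-Tap1, Ranbp1-Trmt2a, Mrps12-Sars2 and Gart-Son), 4 had a gap under 100 bp, and 9 overlapped or were not neighbours in the gene table.

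Ranbp1-Trmt2a, whose 152 bp are printed above, held no centre on any day, and its window held 8, 8 and 10 centres with a relative occupancy of 3.66, 5.62 and 3.65. The Mrps12-Sars2 gap was also empty throughout, and its window had an occupancy of 2.04, 1.65 and 0.718, a log2 change of -1.50, with 6, 5 and 3 centres. Brca1-Nbr1, with the gene of a homologous recombination factor and that of an autophagy receptor, was empty in its 151 bp on each day, with an occupancy of 2.23, 2.50 and 1.62. Psmb9-Tap1 held 1 centre on day 0, 98 bp to the right of the middle with a summit value of 6.10, none on day 1, and 1 on day 2, 45 bp to the right with 5.63. Its occupancy was 4.93, 5.35 and 2.63. Gart-Son, which joins a purine synthesis enzyme and a splicing factor over 851 bp, held 4, 3 and 2 centres. On days 0 and 1 a centre lay 27 bp left of the middle, with a summit value of 16.8 and 10.4, and on day 2 one lay 10 bp left of it with 4.38.

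Among head-to-head gaps the largest increases from day 0 to day 2 that had the same sign in both steps were at Rbmxl1-Slc10a7, Aldh5a1-Gpld1 and Fbh1-Ankrd16. At Rbmxl1-Slc10a7, with an RNA-binding protein gene and a solute carrier gene, the occupancy was 1.48, 3.13 and 4.22, a log2 change of 1.51. Its gap of 394 bp held 2 centres on each day, on day 0 at 124.5 bp left and 115.5 bp right of the middle, on day 1 at 74.5 and 115.5 bp and on day 2 at 124.5 and 165.5 bp, with summit values from 10.8 to 17.7. At Aldh5a1-Gpld1 (succinate semialdehyde dehydrogenase and a phospholipase that cuts membrane anchors) it was 1.27, 3.05 and 3.23, and at Fbh1-Ankrd16 1.93, 3.98 and 4.70. Counted without summit values the log2 change at Aldh5a1-Gpld1 was 0.92 and at Fbh1-Ankrd16 0.49, below 2 times.

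The largest decreases were at Cd160-Pdzk1, Mrps12-Sars2 and Slc39a7-Rxrb. The occupancy at Cd160-Pdzk1 was 3.76, 1.99 and 1.08, a log2 change of -1.80, with 10, 5 and 4 centres in the window. In the gap itself, which had the low CpG content shown above, a centre lay 39.5 bp right of the middle on day 0 with a summit value of 13.7, and 17.5 bp left of it on days 1 and 2 with 5.83 and 5.63. Slc39a7-Rxrb, with the genes of a zinc transporter and a retinoid receptor, had 6.95, 6.47 and 3.49.

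A centre kept within 20 bp on all 3 days was found in 11 head-to-head, 49 tandem and 36 tail-to-tail gaps. Among the gaps that held a centre on all 3 days these were 11 of 54 (20.4%, 10.6 to 33.5), 48 of 258 (18.6%, 14.05 to 23.9) and 36 of 236 (15.3%, 10.9 to 20.5), with intervals that overlap. The head-to-head gaps with the highest lowest-day summit value were Kirrel2-Nphs1, 691 bp long and known from the kidney's filtration barrier, with 9.15, 8.74 and 9.38, and Cd3eap-Ppp1r13l, with 7.62, 6.47 and 8.76. In the 240 bp of Cd3eap-Ppp1r13l the centre lay 39.5, 37.5 and 57.5 bp right of the middle, towards Ppp1r13l.

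**Figure D5:**
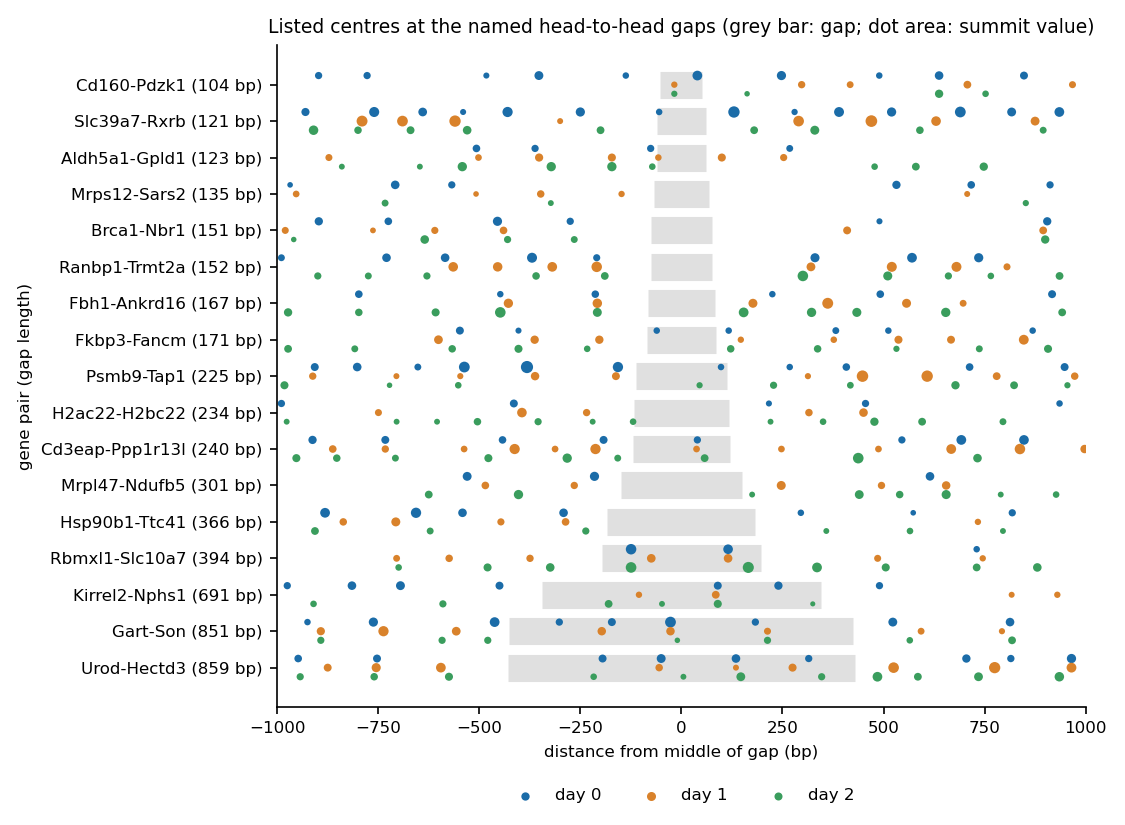
Listed nucleosome centres by distance in bp from the middle of the named head-to-head gaps, ordered by length. Grey bars are the gaps, colours the libraries of days 0, 1 and 2, and the dot area is proportional to the summit value. Mrps12-Sars2, Brca1-Nbr1, Ranbp1-Trmt2a and Fbh1-Ankrd16 have no dot on the grey bar, Cd3eap-Ppp1r13l has 1 per day, and Gart-Son and Urod-Hectd3, with 851 and 859 bp, have 2 to 4 per day.

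Among tandem gaps the largest increases were at Sec61a2-Dhtkd1 (occupancy 1.02, 2.03 and 2.77), Tmem139-Casp2 (1.31, 1.58 and 3.36) and Xaf1-Fbxo39 (1.08, 2.42 and 2.45). Within 500 bp of the middle the log2 change at Xaf1-Fbxo39 was -0.0067 in place of 1.18. Casp2 codes for a caspase and Xaf1 for an apoptosis-promoting protein. The largest decreases were at Arfgap1-Col20a1 (2.48, 1.63 and 0.693), Ccdc51-Plxnb1 (4.68, 2.52 and 1.92) and Ap1g2-Jph4 (3.66, 2.92 and 1.57). The kept centres with the highest lowest-day summit value were at B3galt4-Rps18, with the gene of a small-subunit ribosomal protein, with 11.9, 11.3 and 15.5, and at P2rx1-Camkk1, with 12.2, 11.3 and 11.3.

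Among tail-to-tail gaps Wdr41-Pde8b had the largest increase (1.05, 1.26 and 2.77), before Armc10-Napepld (1.50, 2.13 and 3.16) and Retsat-Tgoln1 (1.59, 2.55 and 3.16). Slc7a9-Tdrd12 (3.03, 2.06 and 0.872), Perm1-Plekhn1 (4.08, 4.02 and 1.18) and Dnah10-Ccdc92 (3.38, 1.08 and 1.05) had the largest decreases. The kept centres with the highest lowest-day summit value were at Cd151-Polr2l, with the gene of an RNA polymerase subunit, with 15.1, 10.6 and 9.92, and at Tssc4-Trpm5, with 12.2, 11.3 and 8.76.

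Positions in short gaps were shared between days more often than the average, and so were shifted ones. Of the day 0 centres in short gaps, 23.9% (22.2 to 25.8) had a day 1 centre and 24.8% (23.0 to 26.7) a day 2 centre within 20 bp, against 20.2% and 19.8% after shifts of 1000 bp. Over the autosomes the shares were 13.7% and 15.8%, against 10.52% and 12.23% after the shift. For day 1 centres in the day 2 list the share in short gaps was 25.2% (23.4 to 27.1), against 18.97% after the shift. Over the autosomes it was 18.5%, against 13.81% after the shift. The shares were thus lower after the shift over the autosomes too. Whether the shift lowered the share more in short gaps than over the autosomes was not tested. In head-to-head gaps 31.2% (24.0 to 39.1) of 154 day 0 centres had a day 2 centre nearby, and the share after the shift, 22.7%, lay below that interval. A day 1 centre was near 19.5% (13.5 to 26.6) of them, and the share after the shift, 18.5%, lay within that interval.

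Short gaps were also described for lists of genes of known function, for which no enrichment was computed. Replication-dependent histone genes had 24 gaps with a median log2 change of 0.21 from day 0 to day 2 (22 with enough centres, 1 higher and none lower), and 10 of the gaps were head-to-head, all with an H2A gene on one side and nearly all with an H2B gene on the other. Of these 10, with a median length of 203.5 bp, 9 were empty on each day and 8 on all 3 days. Over all head-to-head gaps the empty shares were 93.5%, 91.9% and 83.7% at 100 to under 200 bp and 72.6%, 70.8% and 61.3% at 200 to under 400 bp. Most head-to-head gaps of these lengths were thus empty too. H2ac22-H2bc22, printed above, had an occupancy of 1.50, 2.57 and 3.23 with 5, 5 and 12 centres, a log2 change of 1.11. In the tandem H2ac23-H4c17 gap it was 2.42, 3.89 and 1.69. Histone genes have near-identical copies, so reads may have been placed at another copy and these values are uncertain. H1f0, which is not replication-dependent, is in the list by its symbol.

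The mitochondrial ribosome had 23 gaps, 8 of them head-to-head, of which 7, 6 and 7 were empty and 6 on all 3 days. The respiratory chain had 24, 9 of them head-to-head, of which 7, 7 and 6 were empty. Over all head-to-head gaps 71.9%, 70.9% and 62.6% were empty, not matched for length. On day 2 the mitochondrial ribosome, with 7 of 8, and the DNA repair list below, with 6 of 7, were above that share. Median lengths were 211 bp for the mitochondrial ribosome, 234 bp for the respiratory chain and 171 bp for DNA repair. At 100 to under 200 bp 93.5%, 91.9% and 83.7% of all head-to-head gaps were empty, and at 200 to under 400 bp 72.6%, 70.8% and 61.3%. Mrpl47-Ndufb5 belongs to the mitochondrial ribosome and to the respiratory chain, with the genes of a ribosomal protein and a complex I subunit. Its 301 bp were empty while its window had an occupancy of 1.43, 2.52 and 2.82. The median log2 change from day 0 to day 2 was -0.18 for the mitochondrial ribosome (none higher and 1 lower of 21) and 0.01 for the respiratory chain (none of 22 in either direction). DNA repair and replication had 22 gaps, 7 of them head-to-head, with 5, 5 and 6 empty, and a median of -0.13 (none higher and 2 lower of 21). Fkbp3-Fancm, with a Fanconi anaemia gene, had 1.91, 4.13 and 3.18, and Spib-Pold1, with a DNA polymerase subunit gene, 4.36, 4.77 and 2.05. Over all 1316 short gaps compared the median was -0.14.

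Cytosolic ribosomal protein genes had 17 gaps, of which 1 was head-to-head, with a median of -0.10 and none past 2 times. The extremes were Micos13-Rpl36 (2.74, 5.34 and 3.36) and Rpl4-Snapc5 (3.28, 2.85 and 1.74). Proteasome genes had 12 gaps (median -0.15), among them Psmd8-Catsperg1 (2.64, 3.47 and 2.69), with Psmc3ip, which is no subunit, in that list by its symbol. Chaperone genes had 19 gaps (median 0.09), among them Cmbl-Cct5 (1.53, 4.87 and 2.49) and Hsp90b1-Ttc41 (2.87, 2.27 and 1.62), the latter with an empty gap of 366 bp. None of these lists had a gap past 2 times from day 0 to day 2. The aminoacyl-tRNA synthetases had 6 gaps with a median of -0.79, of which 2 were lower, where 9.93% of all gaps were called.

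Erythroid genes had 10 short gaps, and both head-to-head ones, Urod-Hectd3 and Stat5b-Stat5a, held centres on all 3 days. Over all head-to-head gaps 19.4% did. These 2 gaps are 859 and 346 bp long, and longer gaps were less often empty. At 700 to 1000 bp 3, 4 and 1 of 24 head-to-head gaps were empty, and at 200 to under 400 bp 72.6%, 70.8% and 61.3%. Urod-Hectd3, with the gene of the haem enzyme uroporphyrinogen decarboxylase, held 4, 3 and 4 centres in 859 bp and had an occupancy of 3.62, 5.79 and 4.17. A centre 135 bp right of the middle on days 0 and 1 and 147 bp right of it on day 2 had summit values of 10.7, 5.18 and 11.3. Swsap1-Epor, where the erythropoietin receptor gene ends, had 5.29, 6.74 and 2.46, a log2 change of -1.10, which was -0.95 with the other scaling and -0.89 within 500 bp of the middle. The median of the 8 erythroid gaps with enough centres was -0.27, with none higher and 1 lower.

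Of the markers of other cells, 2 macrophage, 1 hepatocyte, no megakaryocyte and 1 lymphoid gene pairs had a short gap. Cd68-Eif4a1 had an occupancy of 2.58, 4.64 and 3.22, Csf1r-Hmgxb3 3.59, 3.30 and 3.42 and Coro1b-Ptprcap 5.95, 5.55 and 3.43. Nucleosome positions do not measure RNA, so these values do not check the makeup of the cultures.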

How the data were processed

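Micrococcal nuclease sequencing gave 1 library per day. The build mm10 and the tools bedtools and Bowtie2 are named, without versions, in the submitters' processing notes, and no source used here gives the position caller. For each library the authors deposited a list of positions, with the centre, the summit value (the authors' coverage signal, smoothed and scaled), a fuzziness score, and a p-value for each, used in no comparison here. Genes with coordinates below 3000000 bp were left out, since they belong to unplaced sequence. Strand and sequence came from the RefSeq promoter table of GRCm38.p6 (16457 protein-coding genes on 18 autosomes).

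Centres were counted in windows (main settings: 50 bp around the middle, flanks of 800 to 1000 bp, 20 bp for a shared centre, 10 bp bins smoothed over 5 bins). Intervals are 95% exact. The gap rule and the gene lists were chosen with earlier results of these data known. Named gaps are the known pairs, the 3 largest changes in each direction and orientation from day 0 to day 2 with at least 3 centres each day and the same sign in both steps, and the largest in each direction per list. Also named are, per orientation, the 2 gaps whose kept centre had the highest lowest-day summit value. Except for the known pairs, predicted models were not named, nor were gaps less than 5 kb from a named one. The comparisons at 100 to under 400 bp and in promoter windows by CpG ratio were added after the data were seen. Counting was tested on simulated data. Python 3.11.15, numpy 2.4.6, pandas 2.3.3, scipy 1.17.1 and matplotlib 3.10.9 were used. The values of 1 marker pair are not reported here.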

Additional observations from a re-analysis of the deposited data

How the results depend on the processing

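No paired analysis was possible because there is 1 library per day, and leaving one out leaves no comparison between days for it. Read depth is unknown, so an empty gap is a limit of what was listed.

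With other flanks, a middle of 100 bp on each side, no crowded gaps or no predicted models, the density in the middle moved by less than its spread over autosomes. With each position counted once it was 0.753 over all short gaps on day 1. With summit values of 10 or more it was 0.495, 0.438 and 0.532 on days 0, 1 and 2 over all short gaps, 0.476, 0.483 and 0.536 for tandem and 0.638, 0.503 and 0.639 for tail-to-tail gaps. In gaps of 100 to 500 bp it was 0.560 and 0.613 on days 0 and 2. In gaps of 500 to 1000 bp it was 0.788 and 0.840 on days 0 and 2 over all, 0.686, 0.638 and 0.954 for head-to-head gaps and 1.02 for tail-to-tail gaps on day 0.

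The share of empty gaps also moved, and longer gaps and fewer positions change it by construction. With summit values of 10 or more it was 71.7%, 74.5% and 73.7% over all short gaps, 92.4%, 89.6% and 87.4% for head-to-head, 68.4%, 67.4% and 66.8% for tandem and 63.1%, 71.98% and 72.6% for tail-to-tail gaps. In gaps of 100 to 500 bp these shares were 45.8%, 47.6% and 42.3%, then 81.9%, 80.2% and 71.7%, then 26.3%, 33.2% and 25.8%, and then 23.8%, 24.3% and 24.9%, in the same order of classes. In gaps of 500 to 1000 bp they were 8.09%, 8.26% and 4.30%, then 14.6%, 17.1% and 9.76%, then 8.95%, 7.89% and 4.21%, and then 5.84%, 7.79% and 3.25%. With any base of a position inside counting, they were 20.6%, 23.9% and 16.7%, then 53.6%, 58.99% and 41.4%, then 11.3%, 11.6% and 7.63%, and then 7.67%, 12.1% and 9.14%.

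Counts past 2 times moved as follows, for reasons not tested. The share of all gaps past the same limit follows each count in parentheses. With at least 5 centres, of 1153 short gaps 3 were lower (0.603%) from day 0 to 1, 1 was higher (0.137%) from day 1 to 2, and 12 were higher (0.986%) and 41 were lower (6.72%) from day 0 to 2. With at least 1 centre, of 1392 gaps 35 were lower (11.9%) in the first step, 25 higher (9.55%) in the second and 73 higher (9.35%) from day 0 to 2. With summit values of 10 or more, 370 gaps were left. In the first step 126 were higher (27.4%) and 4 lower (0.839%). In the second step 4 were higher (1.47%) and 58 lower (14.1%). Between days 0 and 2 there were 50 higher (13.01%) and 7 lower (2.20%), which turns the split of 39 higher and 64 lower. With each position counted once, of 1316 gaps 82 were higher (7.25%) and 9 lower (1.75%) in the first step, 2 higher (0.483%) in the second, and 13 higher (1.52%) and 40 lower (6.46%) from day 0 to 2. With the other scaling 8 were higher (2.12%) in the second step, and 61 higher (5.34%) and 37 lower (6.59%) from day 0 to 2. Within 500 bp of the middle, of 882 gaps 5 were lower (1.02%) in the first step, 0 higher (0.105%) in the second and 24 higher (1.77%) from day 0 to 2. Of the values at named gaps 171 kept their class, 10 were past 2 times only under an alternative, 12 no longer were, and 1 reversed, Xaf1-Fbxo39 at -0.0067 within 500 bp of the middle.

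A centre within 10 bp was found for 13.4% of day 0 centres in the day 1 list. The share was 14.1% for day 1 centres and 14.4% for day 0 centres in the day 2 list. After shifts of 1000 bp these shares were 10.2%, 10.8% and 10.3%. Within 40 bp they were 41.1%, 42.3% and 42.4%, and 40.2%, 36.8% and 37.9% after the shift. With summit values of 10 or more they were 10.6%, 8.76% and 10.6%, and 11.3%, 5.93% and 6.90% after the shift. At that setting the share of day 0 centres in the day 1 list was thus below the shifted one.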
